A study of Homo sapiens with 6 samples.

Results

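YAP and TAZ are transcriptional co-activators at the end of the Hippo pathway. When the kinases LATS1 and LATS2 phosphorylate them, they are held in the cytoplasm or degraded, and when they are not phosphorylated they enter the nucleus, bind TEAD transcription factors and switch on their target genes. Several of these targets encode proteins that act back on the pathway, so the target list holds both feedback regulators and genes of adhesion, secretion and metabolism. The 10 targets described here are ANKRD1, AMOTL1, AMOTL2, AJUBA, CRIM1, PTPN14, NUAK2, ASAP1, DDAH1 and PRSS23. They were picked by name as known YAP/TAZ targets outside the lists of cell cycle and ERK-regulated genes, and because their responses to erlotinib had been seen to diverge, so their own changes are given as a description. The counts of those past the threshold used for all genes are part of that description and support nothing further. All 10 were found among the 28395 genes of the deposited table.

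The libraries came from 1 cell line, HCC827, an established line of human lung adenocarcinoma in which a deletion in EGFR keeps the receptor active. Cells were treated for 24 h with the vehicle DMSO (3 libraries) or with 1 μM erlotinib, an inhibitor of the EGFR kinase (3 libraries), and the comparison asked how EGFR inhibition changes transcription across the genome. The study's methods state in general that experiments were repeated independently, but no source used here says for these libraries that those of a condition came from separate cultures, so p-values measure only the spread between these samples, which may be technical. The DMSO libraries held 20858083, 24641819 and 21172884 reads on genes, and the erlotinib libraries 21944007, 20760204 and 21678395. Values are given as signal, the reads of a gene divided by the size factor of its library. Epithelial markers were abundant. In the DMSO libraries KRT7, the most abundant of 7, was at 123686 ± 7643 and EPCAM at 9852 ± 235 (mean ± SD, n = 3).

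The binding site of TEAD factors holds the hexamer GGAATG, which reads CATTCC on the other strand. RefSeq start sites (GRCh38.p14) matched 8 of the 10 genes, all but CRIM1 and ASAP1, and gave 13 start sites. In the 250 bases before these starts, 6 of the 8 genes held the hexamer on either strand in at least 1 window, and 14.3% of the 27305 genes with such windows did. So did 4 of 12 other YAP/TAZ targets (33.3%), 4 of 10 paralogues of the 10 genes and 3 of 19 Hippo pathway genes (15.8%). Counted by window, 6 of 13 held it, against 11.9% of the 35116 windows of all genes. The windows of 4 genes are shown, from genes that were higher (ANKRD1, AMOTL2), little different (NUAK2) and lower (PTPN14) with erlotinib. They are read 5′ to 3′ on the strand of the gene, which is the minus strand in each case, and end at the base before the start. Capitals mark GGAATG or CATTCC and, in the ANKRD1 window, also a match of the loose AP-1 pattern TGANTCA, which overlaps neither hexamer. N stands for any base.
ANKRD1, chr10:90921088-90921337: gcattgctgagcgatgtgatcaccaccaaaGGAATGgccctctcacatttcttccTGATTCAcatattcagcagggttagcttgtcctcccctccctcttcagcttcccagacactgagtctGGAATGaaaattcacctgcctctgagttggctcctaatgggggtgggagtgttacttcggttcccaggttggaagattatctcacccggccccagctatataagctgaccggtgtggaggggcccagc
AMOTL2 start 2, chr3:134374448-134374697: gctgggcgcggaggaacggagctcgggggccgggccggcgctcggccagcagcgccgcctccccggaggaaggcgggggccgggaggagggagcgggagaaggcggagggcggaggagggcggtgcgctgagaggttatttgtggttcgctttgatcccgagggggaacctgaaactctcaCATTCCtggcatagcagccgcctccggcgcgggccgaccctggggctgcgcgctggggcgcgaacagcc
NUAK2, chr1:205321746-205321995: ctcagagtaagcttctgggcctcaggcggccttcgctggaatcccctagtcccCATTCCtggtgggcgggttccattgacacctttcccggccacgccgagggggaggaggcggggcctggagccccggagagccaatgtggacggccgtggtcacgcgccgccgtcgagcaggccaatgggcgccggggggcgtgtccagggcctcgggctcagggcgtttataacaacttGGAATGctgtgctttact
PTPN14, chr1:214551603-214551852: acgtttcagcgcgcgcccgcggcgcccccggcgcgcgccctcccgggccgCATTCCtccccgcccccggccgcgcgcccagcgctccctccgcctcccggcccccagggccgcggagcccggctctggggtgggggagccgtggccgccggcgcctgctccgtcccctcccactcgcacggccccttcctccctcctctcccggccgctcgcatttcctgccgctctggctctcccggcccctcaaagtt
ANKRD1 and NUAK2 held 2 hexamers each, a number found in 0.94% of all windows when 2 or more are counted. In ANKRD1 their first bases were at -220 and -128 from the start, and in NUAK2 at -197 and -18. AMOTL2, PTPN14, AJUBA and DDAH1 held 1 each, AMOTL2 and AJUBA only at the second of their 2 starts and DDAH1 only at the first of its 3. AMOTL1 and PRSS23 held none in these windows. The only AMOTL1 window, chr11:94768106-94768355, lies inside the gene span given below, so the bases before that span were not searched. The window of CTGF, a classical YAP target outside these 10 and 1 of those 4, held 3. The loose AP-1 pattern, TGANTCA on both strands, was in 1 window each of ANKRD1 and DDAH1, and in 6.57% of all windows. The matches read TGATTCA in ANKRD1 and TGAATCA in DDAH1, so neither had C or G at the centre. The share of all windows counts any base there. Matches of either kind are letters in a window and no measure of TEAD or AP-1 binding in these cells.

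**Figure D1:**
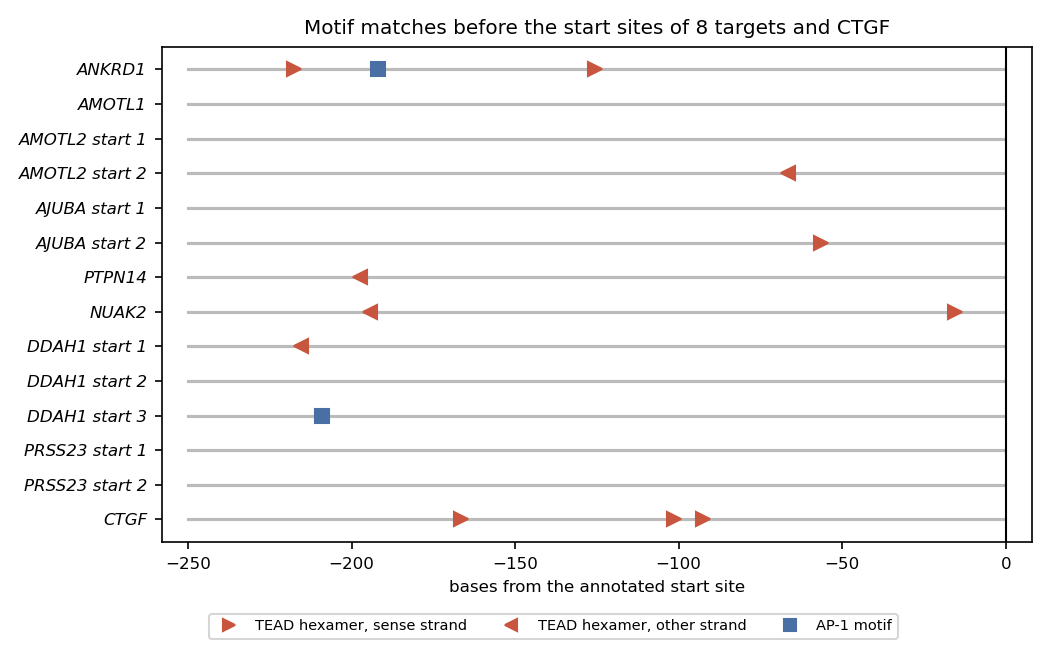
Position of motif matches (x axis, bases from the annotated start site) in the 250 bases before each RefSeq start of 8 of the 10 targets and of CTGF (rows). Arrowheads mark the TEAD hexamer and its strand, squares a match of the loose AP-1 pattern TGANTCA (N, any base). Hexamers stand in windows of genes that were higher (ANKRD1, AMOTL2) and lower (PTPN14, DDAH1) with erlotinib.

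AMOTL1 and AMOTL2 encode angiomotin-like proteins, scaffolds of cell junctions that bind YAP and keep it out of the nucleus. The signal of AMOTL1 (Entrez gene 154810, chromosome 11, 94706460 to 94876748 of GRCh38, plus strand) was 895, 833 and 948 in the DMSO libraries and 1686, 1435 and 1519 in the erlotinib libraries. Every erlotinib library lay above every DMSO library, and the log2 fold change of log2(signal + 1) was 0.79 (standard error 0.09, 95% interval 0.61 to 0.97, limma). AMOTL2 (Entrez gene 51421, chromosome 3, 134355345 to 134375417, minus strand) had a signal of 5265, 5007 and 5419 in DMSO and 6566, 6863 and 6831 with erlotinib. Its groups did not overlap either, and the mean was 29.1% higher with erlotinib (log2 fold change 0.37, standard error 0.06, 95% interval 0.24 to 0.50, limma). The third YAP-binding regulator, the non-receptor tyrosine phosphatase PTPN14 (Entrez gene 5784, chromosome 1, 214348700 to 214551602, minus strand), stood on the other side. Its signal was 5007, 5556 and 4945 in DMSO and 2705, 2698 and 2785 with erlotinib. The lowest DMSO library was well above the highest erlotinib library, the mean fell by 47.2%, and the log2 fold change was -0.92 (standard error 0.07, 95% interval -1.06 to -0.78, limma).

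AJUBA and NUAK2 act on the kinase step. AJUBA (Entrez gene 84962, chromosome 14, 22971177 to 22982551, minus strand) encodes a LIM domain protein that binds LATS kinases and restrains them, and NUAK2 (Entrez gene 81788, chromosome 1, 205302063 to 205321745, minus strand) an AMPK-related kinase. AJUBA had a signal of 15887, 14706 and 15034 in DMSO and 14811, 15572 and 14798 with erlotinib. The groups overlapped, and the log2 fold change was -0.01 (standard error 0.06), with a 95% interval of -0.14 to 0.11 (limma). NUAK2 had a signal of 1013, 927 and 961 in DMSO and 985, 1006 and 1109 with erlotinib, again with overlap. Its log2 fold change was 0.09 (standard error 0.09, 95% interval -0.08 to 0.27, limma).

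The other targets do not belong to the Hippo pathway itself. ANKRD1 (Entrez gene 27063, chromosome 10, 90912096 to 90921087, minus strand) encodes an ankyrin repeat protein known from stressed heart muscle and is a widely used YAP readout. Its signal was 49.9, 131 and 85.6 in DMSO and 312, 300.0 and 259 with erlotinib, so every erlotinib library lay above every DMSO library. The log2 fold change of 1.80 was the largest of the 10 and also the least precise (standard error 0.24, 95% interval 1.30 to 2.2996, limma), since the DMSO libraries had a coefficient of variation of 45.7%. It rested on 44 to 338 reads per library. ASAP1 (Entrez gene 50807, chromosome 8, 130052104 to 130443674, minus strand), a GTPase-activating protein for ARF GTPases at focal adhesions, fell furthest on the same scale. Its signal was 4095, 4953 and 4565 in DMSO and 2372, 2293 and 2388 with erlotinib, without overlap, and the log2 fold change was -0.94 (standard error 0.07, 95% interval -1.10 to -0.79, limma). Its mean fell by 48.2%, close to the fall of PTPN14.

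CRIM1 (Entrez gene 51232, chromosome 2, 36355778 to 36551135, plus strand) encodes a transmembrane protein with cysteine-rich repeats that binds bone morphogenetic proteins. Its signal was 3866, 4373 and 3834 in DMSO and 3107, 3211 and 3386 with erlotinib. The groups did not overlap, and the log2 fold change was -0.31 (standard error 0.07, 95% interval -0.46 to -0.17, limma). DDAH1 (Entrez gene 23576, chromosome 1, 85318485 to 85578200, minus strand) encodes the enzyme that degrades asymmetric dimethylarginine, an inhibitor of nitric oxide synthases. Its signal was 9573, 10243 and 9571 in DMSO and 8786, 8849 and 8661 with erlotinib, and the log2 fold change was -0.16 (standard error 0.06, 95% interval -0.29 to -0.03, limma). PRSS23 (Entrez gene 11098, chromosome 11, 86791071 to 86952910, plus strand), a secreted serine protease, had a signal of 14576, 14798 and 14160 in DMSO and 13325, 13942 and 13723 with erlotinib. The groups of DDAH1 did not overlap, and the highest erlotinib library of PRSS23 lay just below its lowest DMSO library. For PRSS23 the 95% interval of the log2 fold change of -0.09 (standard error 0.06, limma) ran from -0.21 to 0.04.

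**Figure D2:**
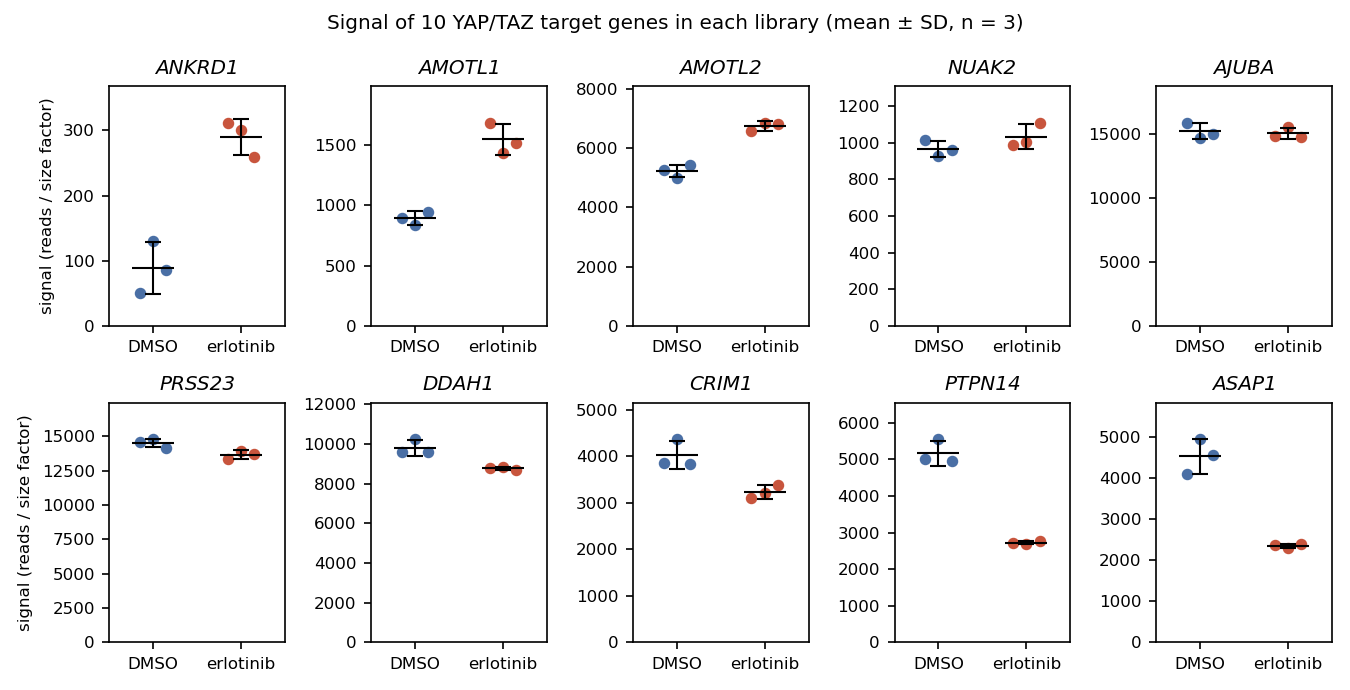
Signal (y axis, reads divided by the size factor, from 0) of each of the 10 targets in the 3 DMSO (blue) and 3 erlotinib (red) libraries, ordered by log2 fold change. Points are libraries, bars the mean ± SD (n = 3); the groups are apart for ANKRD1, AMOTL1, AMOTL2, CRIM1, PTPN14, ASAP1 and DDAH1, nearly touch for PRSS23, and overlap for AJUBA and NUAK2.

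At the threshold used for all genes (adjusted p-value under 0.05, limma with Benjamini-Hochberg adjustment), 3 of the 10 were higher (ANKRD1, AMOTL1 and AMOTL2), 4 lower (ASAP1, PTPN14, CRIM1 and DDAH1) and 3 neither. DDAH1 no longer passed when any 1 of the 3 erlotinib libraries was left out. Of the 14215 genes tested, 35.3% were higher and 35.4% lower, 70.7% in either direction, and the groups did not overlap for 73.6%, against 8 of the 10. These counts describe a set chosen for its spread of responses. The median log2 fold change of the 10 was -0.05 and that of all tested genes 0.02. Among all tested genes, 92.5% had a lower log2 fold change than ANKRD1, 77.9% than AMOTL1 and 65.0% than AMOTL2. PTPN14 and ASAP1 had 12.8 and 12.2% of the tested genes below them, and the remaining 5 targets between 34.2 and 53.6%.

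These values are relative to the size factors in the deposited table. With total counts as the scale in place of size factors, the median of all tested genes moved by 0.18, from 0.02 to 0.19, and each of the 10 log2 fold changes moved up by about as much. DDAH1 then changed sign (0.02), as did AJUBA (0.17) and PRSS23 (0.09), whereas ANKRD1, AMOTL1 and AMOTL2 stayed above 0 and PTPN14 and ASAP1 below it. CRIM1 stayed below 0 (-0.13) but no longer passed the threshold, nor did DDAH1, and AJUBA and NUAK2 (0.27) passed it as higher. Of all tested genes, 43.3% were higher and 27.8% lower on that scale. Relative to the median of all genes under that scaling, AMOTL2 was at 0.35, AJUBA at -0.03, DDAH1 at -0.17 and CRIM1 at -0.33. A change in the amount of RNA per cell and a change in the number of cells cannot be told apart in these bulk libraries.

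**Figure D3:**
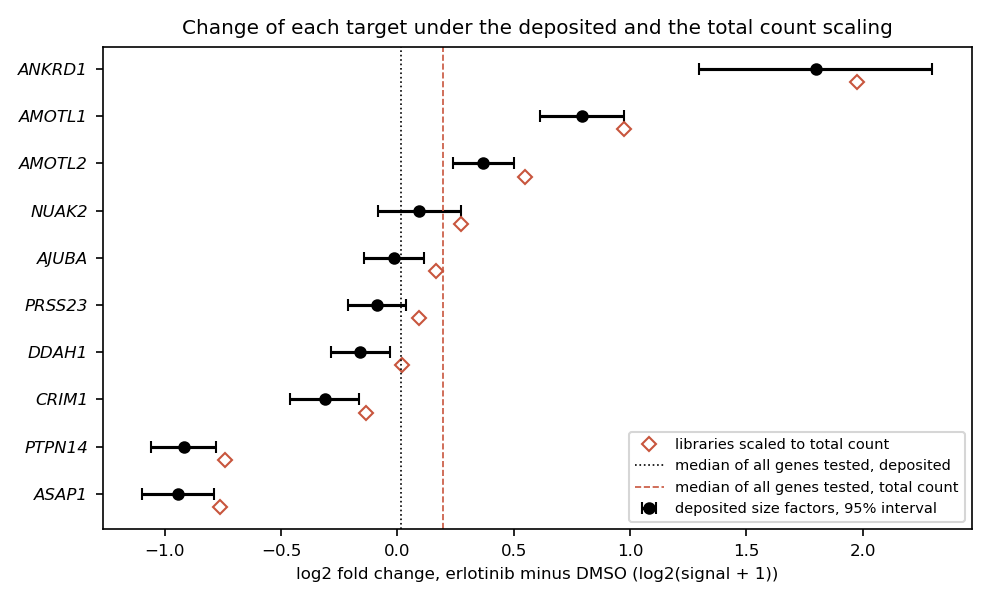
Log2 fold change of log2(signal + 1), erlotinib minus DMSO (x axis), of the 10 targets (rows). Black points and bars are the values with the deposited size factors and their 95% intervals, open diamonds those after scaling to the total count, and vertical lines the medians of all genes tested (0.02 and 0.19); AJUBA, PRSS23 and DDAH1 cross 0 between the scalings.

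The second DMSO library, the deepest of the 6, had the highest DMSO signal for 6 of the 10 targets (ANKRD1, ASAP1, PTPN14, CRIM1, DDAH1 and PRSS23) and the lowest for the other 4 (AMOTL1, AMOTL2, AJUBA and NUAK2). Over all genes it also differed most from the other DMSO libraries, with a chi-square per degree of freedom of 22.9 and 14.4, against 7.61 between those. Its part in the changes was measured by leaving it out, which gave 2.13 for ANKRD1. Without the first DMSO library, ANKRD1 was at 1.44. Over the 6 fits that each left out 1 library, AMOTL1 lay between 0.73 and 0.84, AMOTL2 between 0.34 and 0.40, PTPN14 between -0.95 and -0.87 and ASAP1 between -1.02 and -0.88. CRIM1 lay between -0.35 and -0.25 and PRSS23 between -0.10 and -0.07. NUAK2 lay between 0.04 and 0.13, lowest without the third erlotinib library, and AJUBA between -0.04 and 0.02, above 0 without the first DMSO library. DDAH1 lay between -0.18 and -0.13.

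Per length, the 10 targets spanned a wide range of levels. With the signal divided by the length of the canonical GENCODE transcript, PRSS23 had 3908 ± 87.2 per kb in DMSO and AJUBA 3649 ± 146 (SD, n = 3 each), followed by DDAH1 (2487 ± 98.3) and AMOTL2 (1074 ± 42.8). ASAP1 (725 ± 68.6) and CRIM1 (664 ± 49.9) did not differ beyond their spread. PTPN14 (387 ± 25.2), NUAK2 (285 ± 12.8), AMOTL1 (99.3 ± 6.42) and ANKRD1 (49.6 ± 22.7) were the lowest. The order of the first 4 was the same with erlotinib, where PRSS23 (3680 ± 84.1) and AJUBA (3613 ± 106) overlapped in their spread. Below them, CRIM1 (534 ± 23.2) stood above ASAP1 (376 ± 8.13), and NUAK2 (305 ± 19.7) above PTPN14 (204 ± 3.62). AMOTL1 (172 ± 14.2) and ANKRD1 (162 ± 15.4) remained the lowest and no longer differed beyond their spread. The length is that of 1 transcript per gene, and the alignment did not split reads across introns. Reads over exon junctions may thus be missing, more so in genes with many exons for their length. PRSS23 has 2 exons in 3713 bases, ANKRD1 9 in 1790 and ASAP1 30 in 6259. The part of this in the order of the genes was not tested.

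Reads of neighbouring genes bear on a table whose counted strand is not stated. Among genes that overlap 1 of the 10 targets in the RefSeq annotation, FZD4, which overlaps PRSS23, was the only one found among the 14215 genes tested. The others either had a mean signal under 10 or were not matched to the deposited table. The FZD4 signal of 99.5 in DMSO and 115 with erlotinib was small beside that of PRSS23. Within 10 kb lay RPP30 beside ANKRD1, at 351 in DMSO and 204 with erlotinib (log2 fold change -0.78), and C14orf93 beside AJUBA, at 365 and 953 (1.39). FEZ2 lay beside CRIM1, at 1824 and 1366 (-0.42). CYR61, a secreted matricellular protein and YAP target, begins 2561 bases from the start of DDAH1, and its log2 fold change was -0.41 against -0.16 for DDAH1. A copy of the transcript on an alternate contig, which could take reads from a gene when only uniquely mapped reads are counted, was found for 0 of the 10.

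The nearest relatives of the 10 targets showed which family members moved with them. Of 11 paralogues, 9 were tested, and 7 of them were higher and 2 lower at an adjusted p-value under 0.05 (limma), with a median log2 fold change of 0.94. Of all genes tested, 35.3% were higher and 35.4% lower. AMOT, the third angiomotin, had a signal of 212, 189 and 207 in DMSO and 734, 667 and 790.0 with erlotinib. Its log2 fold change was 1.84 (limma, adjusted p = 1.2e-11, standard error 0.12), so that all 3 genes of the angiomotin family were higher. PTPN21, the closest relative of PTPN14, went the opposite way to it, from 410.3 ± 10.7 to 901 ± 59.1 (SD over 3 libraries). The log2 fold change of PTPN21 was 1.13 (limma, adjusted p = 1.6e-09, standard error 0.10). As a log2 ratio within each library, PTPN14 stood 3.65 ± 0.07 (SD, n = 3) above PTPN21 in DMSO, and the difference between conditions in this ratio was -2.05.

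The ASAP family split. ASAP2 fell with ASAP1, from 1418 ± 134 to 849 ± 83.5 (log2 fold change -0.74, standard error 0.09, adjusted p = 5.5e-07, limma), while ASAP3 rose from 106 ± 10.5 to 417 ± 37.2 (1.96, standard error 0.15, adjusted p = 2.0e-10, limma; SD, n = 3 for each). The relatives of ANKRD1 split as well, at low signal. ANKRD2, a muscle ankyrin repeat protein, had a signal of 47.6, 27.9 and 39.6 in DMSO and 0.923, 8.91 and 3.74 with erlotinib. Its groups did not overlap, and the log2 fold change was -3.10 (limma, adjusted p = 1.1e-04, standard error 0.60). ANKRD23, of the same family, rose from 47.3 ± 19.3 to 107 ± 23.1 (SD, n = 3 each; log2 fold change 1.21, standard error 0.28, adjusted p = 6.3e-04, limma). The Ajuba family genes LIMD1 (log2 fold change 0.37, adjusted p = 1.3e-04) and WTIP (0.94, adjusted p = 0.015) were higher, as was NUAK1 (0.43, adjusted p = 0.0043), the relative of NUAK2 (limma). Whether they differed from AJUBA and NUAK2 was not tested. WTIP had a mean DMSO signal of only 42.6 and overlapping groups, and without the second DMSO library its log2 fold change was 0.59 and did not pass. PRSS35 had at most 4 reads in any library, and DDAH2 was listed at 0 in all 6 libraries, with copies of its transcript on 6 alternate contigs.

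Of 16 other known YAP/TAZ targets, 15 were tested, and 7 rose (46.7%), 7 fell (46.7%) and 1 did neither (limma, adjusted p-value under 0.05), where 35.3% of all tested genes were higher and 35.4% lower. The median log2 fold change was 0.14, against 0.02 for all tested genes. The largest falls were those of F3, which encodes tissue factor (-2.69, adjusted p = 1.0e-17), the ectonucleotidase NT5E (-1.74, adjusted p = 1.9e-15) and the receptor tyrosine kinase AXL (-1.51, adjusted p = 3.3e-07). CTGF (-1.50, adjusted p = 9.7e-08) and CYR61 (-0.41, adjusted p = 2.0e-05) fell as well. The largest rises were those of CCDC80, a secreted matrix protein (1.08, adjusted p = 6.7e-10), ARHGEF17 (1.08, adjusted p = 1.7e-10), and the ligand TGFB2 (0.86, adjusted p = 4.3e-10, all limma). The fall of DOCK5 (-0.19, adjusted p = 0.0448, limma) did not pass when the second DMSO library (-0.13) or the first (-0.18) or second (-0.15) erlotinib library was left out, nor with edgeR (-0.18), DESeq2 (-0.19), total counts as the scale (-0.01) or no filter on low values (-0.19). GADD45A (0.14, adjusted p = 0.108, limma) did neither, and passed as higher without the second DMSO library (0.18) and with total counts as the scale (0.32).

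Of 22 genes of the Hippo pathway itself, all tested, 4 rose (18.2%), 11 fell and 7 did neither (limma), beside 35.3% higher and 35.4% lower among all tested genes. Their median log2 fold change was -0.16. YAP1, which encodes YAP, was at -0.18 (adjusted p = 0.0202, limma), and WWTR1, which encodes TAZ, fell by 0.40 on the log2 scale (adjusted p = 2.0e-05, limma). Without the third erlotinib library YAP1 was at -0.15 and did not pass, and it did not pass with total counts as the scale (0.0035). SAV1 (-0.17) and MAP4K4 (-0.18) also passed narrowly, and each failed to pass without any 1 of the 3 erlotinib libraries, SAV1 also without the first DMSO library and with edgeR (-0.15). Neither passed with total counts as the scale (0.01 and 0.0040). The largest falls were those of the upstream regulators NF2 (-0.92, adjusted p = 1.1e-09) and WWC1 (-0.83, adjusted p = 3.2e-10) and the kinase STK4 (-0.68, adjusted p = 1.7e-08), and the largest rises those of TEAD2 (1.92, adjusted p = 8.0e-11), TEAD3 (0.59, adjusted p = 6.1e-05) and VGLL4, a co-factor of TEAD (0.38, adjusted p = 1.4e-04, all limma). LATS2, itself a YAP target, rose by 0.30 (adjusted p = 0.0052, limma). On the scale of total counts, 7 of the 22 fell, beside 27.8% of all tested genes.

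**Figure D4:**
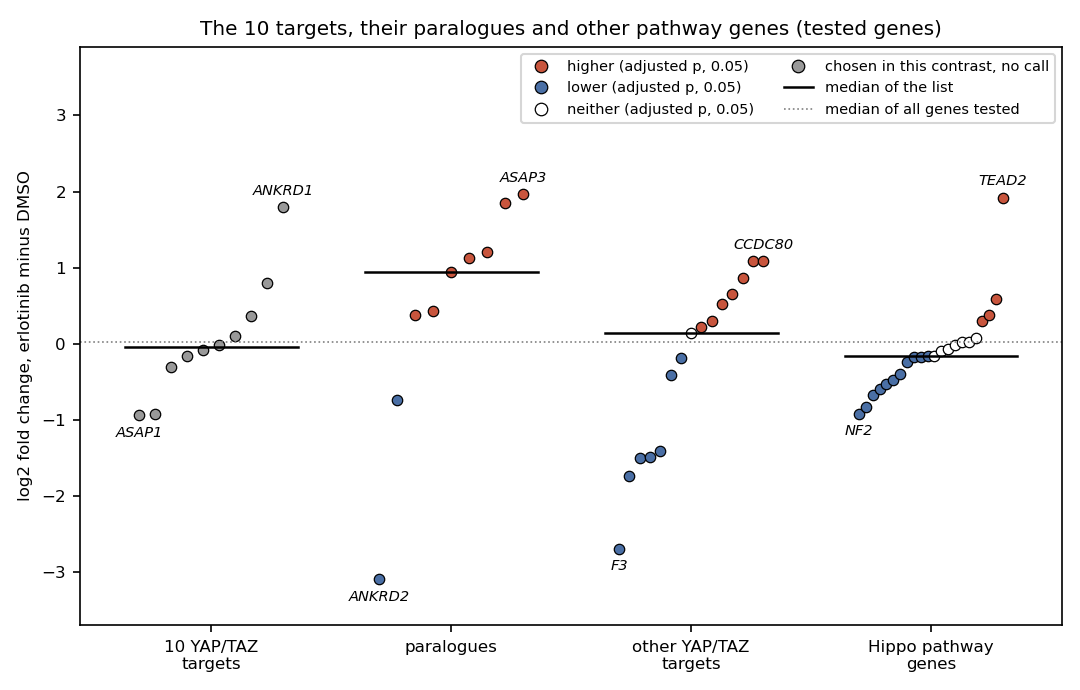
Log2 fold change, erlotinib minus DMSO (y axis), of the 10 targets, their 9 tested paralogues, 15 other YAP/TAZ targets and 22 Hippo pathway genes (LATS2 is in both of the last lists). Each point is a gene, coloured by its call except for the 10 targets, solid lines are list medians and the dotted line the median of all genes; each list spans both directions.

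In their course over the 6 libraries, measured as the Euclidean distance of centred log2(signal + 1) to the 36 tested genes of the other target and Hippo lists, the genes most like AMOTL2 were VGLL4 (distance 0.17), LATS2 (0.17) and IGFBP3 (0.25). Those most like ANKRD1 were TEAD2 (0.71), ARHGEF17 (1.40) and CCDC80 (1.40), at larger distances. Those most like ASAP1 were WWC1 (0.27), NF2 (0.32) and STK4 (0.40). With 2 conditions these distances mostly compare the size of the change.

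The 7 epithelial markers summed to a signal of 337154 to 364728 in DMSO and of 228779 to 241551 with erlotinib. The lower sum lay in the keratins KRT7, KRT8, KRT18 and KRT19 and in EGFR, whereas EPCAM was at a log2 fold change of -0.05 and CDH1 at 0.14. Markers of other cell types were low, apart from CD68 and, less so, COL1A1. VWF rose with erlotinib from a low signal. Of 7 markers of heart and skeletal muscle, the tissue in which ANKRD1 and ANKRD2 are best known, 7 were under a signal of 10 in every library, and their summed signal was 6.42 to 11.1 in DMSO and 8.31 to 11.2 with erlotinib. NPPA was the most abundant of them in DMSO (mean 5.18) and TNNI3 with erlotinib (mean 7.29). The 6 fibroblast markers summed to 73.7, 75.2 and 109 in DMSO and to 260.2, 223 and 215 with erlotinib. Most of it was COL1A1, with a mean of 77.7 in DMSO and 216 with erlotinib (log2 fold change 1.47, limma). COL1A2 was at 0 in every erlotinib library. The 6 endothelial markers summed to 15.8 to 34.0 in DMSO and to 46.5 to 58.1 with erlotinib, with CLDN5 at 0. PECAM1 was the most abundant of them in DMSO (mean 15.7) and VWF with erlotinib (mean 27.4, against 3.94 in DMSO). Of the 6 immune markers, CD68 had a mean signal of 3146, and the other 5 were under 10 in every library. HLA-DRA, 1 of these, was listed at 0 in all 6, and copies of its transcript on alternate contigs were not sought, so its 0 is not read as a level. The part of the keratin, EGFR, COL1A1, VWF and CD68 signal in the changes of the 10 targets was not tested.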

How the data were processed

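The 6 RNA-seq libraries of HCC827, 3 per condition, were aligned by the authors to GRCh38 with Bowtie2 2.3.4. Uniquely mapped reads were assigned to genes by featureCounts 1.6.3, and DESeq2 1.18.1 was used (submitters' processing notes and study methods). The deposited signal is normalised: within a tolerance of 0.01, 100% of values were whole numbers of a step that is constant in a library, and reads were recovered from it. Bowtie2 does not split reads across introns, and the counted strand is not given in the sources used here. No 2 libraries of a condition were duplicates, with a chi-square of 4.05 to 22.9 for each degree of freedom.

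Erlotinib was compared with DMSO by limma 3.58.1 (trend) on log2(signal + 1), keeping the 14215 genes whose mean signal reached 10, two-sided, with Benjamini-Hochberg adjustment over all of them. The members and lists were chosen, from general knowledge, with earlier results of these data known. Genes named from the lists are the 3 largest rises and falls past the threshold, CTGF, CYR61, LATS2, YAP1, WWTR1 and all paralogues. Also named are the genes most like AMOTL2, ANKRD1 and ASAP1 in their course. The rest are genes whose call changed in at least 1 of the fits that left out a library, and they were picked after their values were seen. Alternatives were edgeR 4.0.16 and DESeq2 1.42.0 on the recovered reads, TMM factors, scaling to the total count, pseudocounts of 0.1 and 10, no filter, a minimum of 10 reads in each of the libraries, a threshold of 0.01 on the adjusted p-value, and each library left out in turn. The fits were tested on simulated data, and no result of that check is given or used here. Positions and start sites are from RefSeq (GRCh38.p14), transcript lengths from GENCODE release 44, and copies on 261 alternate contigs were sought with minimap2 2.31-r1302 (at least 90% of the transcript at an identity of at least 97%). R 4.3.3, Python 3.11.15 and matplotlib 3.10.9 were used.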

Additional observations from a re-analysis of the deposited data

How the results depend on the processing

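Scaling to the total count moved the calls of the 10 targets. Under it 5 of the 10 targets passed as higher (ANKRD1, AMOTL1, AMOTL2, AJUBA and NUAK2) and 2 as lower (PTPN14 and ASAP1), where 43.3% of all tested genes were higher and 27.8% lower, the median log2 fold change of the 10 was 0.13, the log2 fold change of DDAH1 reversed to 0.020, and 7 Hippo pathway genes were lower. With at least 10 reads in every library, 1 paralogue was lower, since ANKRD2 could not be tested. All other counts stayed within 1.5 times those given, with 3955 to 5140 genes lower and 4323 to 6156 higher over the alternatives, and the cause was not tested where they moved. ANKRD1, AMOTL1, AMOTL2, PTPN14 and ASAP1 kept their direction and their side of the threshold in all 14 alternative fits, and AJUBA changed sign in 3. No paired analysis was possible because the columns of the erlotinib libraries do not carry the replicate numbers of the labels. Counting error is larger for genes with few reads, such as ANKRD1, its relatives, WTIP and the markers of other cell types except CD68, and 3 libraries per condition limit the precision of every value.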
